A study of Caenorhabditis elegans with 9 samples.

Results

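The asp genes of Caenorhabditis elegans encode pepsin-like aspartyl proteases. Described here are 10 of them, asp-1, asp-2, asp-3, asp-4, asp-5, asp-6, asp-8, asp-13, asp-14 and asp-17, out of 46926 annotated genes. They were chosen by name with their read counts in these libraries already known, so their levels and differences below are a description without a test. The annotation holds 17 genes with an asp symbol, and the other 7 are given beside the 10 where they adjoin them. Messenger RNA was sequenced from whole bodies of synchronized young adult worms in 9 libraries, with 3 from each genotype (WT, UNC5 and PATR1 in the labels). The study's design text describes a wild type and a strain carrying unc-5(Cys348*), a stop allele of the netrin receptor gene unc-5. The labels do not say which mutant label carries that allele, what PATR1 stands for, or whether the replicates were grown separately.

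Pepsin-like aspartyl proteases cleave proteins with a pair of aspartate residues at the bottom of a cleft between the lobes of the enzyme. They are made as inactive precursors that mature at acid pH, and the best known mammalian relative, cathepsin D, works in the lysosome. In the worm such enzymes digest food protein in the gut and recycle protein in lysosomes. Some also take part in necrotic death of neurons together with calcium-activated calpains.

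The libraries held 38673206 to 60642199 reads counted to genes, and the WT libraries were the deepest. Levels are in CPM, each gene's count scaled to a common library size. The gene unc-5 stood at 16.7, 18.4 and 18.3 CPM in WT, 10.1, 9.88 and 10.3 in the UNC5 libraries and 13.8, 13.8 and 12.75 in those of PATR1. Unplaced reads were 2.86% to 6.02% of all reads in PATR1, against 0.621% to 0.937% in the other 6 libraries. Markers of intestine, neurons, body wall muscle, germline, sperm, epidermis and pharynx all had counts in every group, as a whole-body sample would have. Fewer cells of a type and less RNA per cell cannot be told apart in such samples.

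All 10 genes are protein-coding, and 7 lie on chromosome V and 3 on chromosome X of the WBcel235 genome. asp-1 (WBGene00000214, minus strand, chrV:19049562-19050752) has 1 exon. asp-17 (WBGene00012683, minus strand, chrV:19035723-19037322) has 2 exons and lies in the same stretch of the chromosome. asp-6 (WBGene00000219, minus strand, chrV:8267511-8268937) and asp-5 (WBGene00000218, plus strand, chrV:8272385-8274044) form another close pair. asp-8 (WBGene00019105, plus strand, chrV:3024549-3027931), asp-13 (WBGene00017881, minus strand, chrV:8641602-8643193) and asp-2 (WBGene00000215, plus strand, chrV:9203077-9204734) have no other member beside them. On chromosome X lie asp-14 (WBGene00019619, minus strand, chrX:6444185-6446664), asp-3 (WBGene00000216, plus strand, chrX:6791064-6792709) and asp-4 (WBGene00000217, minus strand, chrX:13218985-13221462). Each member has 1 annotated transcript with 1 to 7 exons, and the coding lengths run from 366 residues in asp-14 to 444 in asp-4. Only asp-2 and asp-4 overlap another gene, in both cases on the opposite strand. asp-2 shares 74 exon bases with the innexin gene inx-10, and asp-4 shares 33 with R12H7.4. The counts used are specific for strand, so reads of these partners go to their own gene.

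Together the 10 genes took 0.977% to 1.04% of gene reads in the WT libraries, 1.05% to 1.08% in UNC5 and 0.953% to 0.990% in PATR1. Their summed level was 9770.3 ± 371 CPM (SD, n = 3) in WT, 10615 ± 271 in the UNC5 libraries and 10200.3 ± 198 in those of PATR1. These ranges overlapped between WT and PATR1 and between PATR1 and UNC5, while the lowest UNC5 library lay above the highest WT library. The make-up of the sum differed more than its size. asp-1 supplied 48.9% ± 0.900 of it in WT, 42.7% ± 0.798 in UNC5 and 49.2% ± 0.538 in PATR1. asp-6 supplied 17.4% ± 0.450 in WT, 20.9% ± 0.343 in UNC5 and 14.6% ± 0.193 in PATR1.

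Per kilobase of exon, asp-1 was the most abundant member in every genotype, with 4015 ± 225 CPM per kb in WT, 3809 ± 166 in UNC5 and 4212 ± 47.0 in PATR1. By this level it ranked 4 in WT, 8 in UNC5 and 6 in PATR1 among 17505 tested genes with an exon length. asp-6 came next in all genotypes, at 1330 ± 36, 1742 ± 17 and 1169 ± 34 CPM per kb in WT, UNC5 and PATR1. In WT the order then ran through asp-3, asp-5, asp-2, asp-4, asp-14, asp-13 and asp-8 to asp-17. asp-17 was lowest in every genotype, at 9.17 ± 0.316 CPM per kb in WT, where the median of all tested genes was 8.16. PATR1 kept the WT order. In UNC5 asp-5 stood above asp-3 and asp-14 above asp-4. Neighbours in the order did not overlap between libraries in any genotype.

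**Figure D1:**
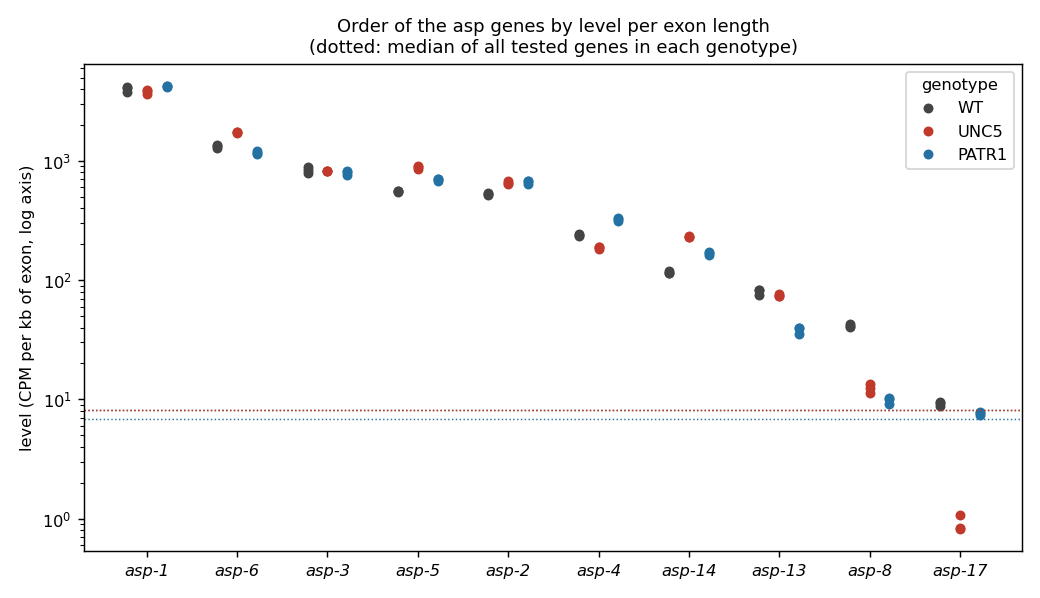
Level of each asp gene in CPM per kb of exon on a log axis, with 1 point per library and the genotypes WT, UNC5 and PATR1 side by side. The genes span from about 4015 CPM per kb for asp-1 in WT down to 0.910 for asp-17 in UNC5, and dotted lines mark the median of all tested genes (8.16 in WT, 8.17 in UNC5 and 6.90 in PATR1).

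Set against WT, the asp genes differed in both directions in each mutant group. In UNC5, asp-2, asp-5, asp-6 and asp-14 were higher past an adjusted p of 0.05 and asp-4, asp-8, asp-13 and asp-17 lower. These are 8 of 10, where 76.8% of all 17512 tested genes passed in either direction. Beyond 2-fold were 2 of the 10, asp-8 and asp-17, both lower, and 20.8% of all genes passed that limit. The libraries did not overlap with those of WT for 7 of the 10, nor for 77.9% of all genes. In PATR1, asp-2, asp-4, asp-5 and asp-14 were higher and asp-6, asp-8, asp-13 and asp-17 lower. These are again 8 of 10, where 83.6% of all genes passed. asp-8 and asp-13 were beyond 2-fold, both lower, and 16.5% of all genes passed that limit. The libraries did not overlap for 8 of the 10, nor for 84.0% of all genes. The median log2 fold change of the 10 was -0.05 in UNC5, where that of all genes was 0.16, and -0.00087 in PATR1, where that of all genes was -0.11. Both comparisons use the same WT libraries, and these counts were part of what the genes were chosen on, so nothing is read from them.

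**Figure D2:**
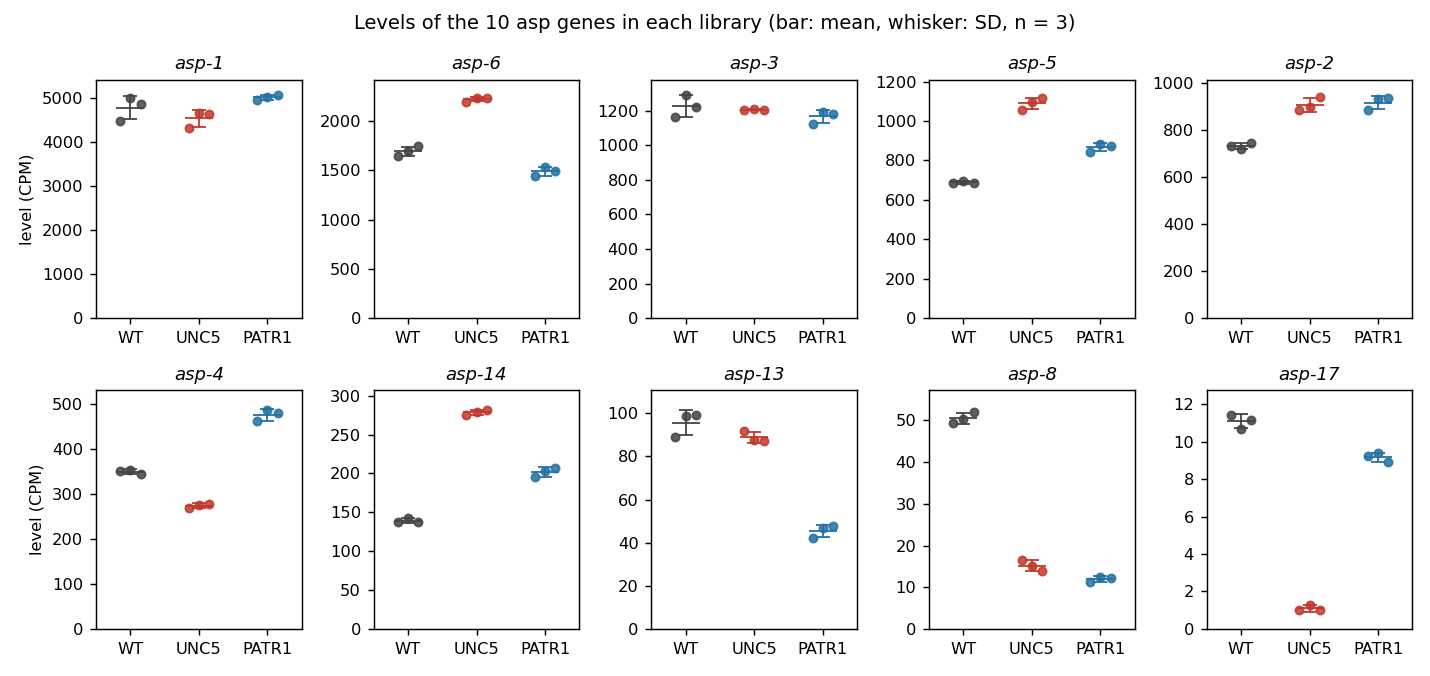
Level of each asp gene in CPM by genotype, each panel with its own axis from 0. Points are libraries, short bars are means and whiskers are SD over 3 libraries. asp-8 is low in both mutant groups and asp-17 in UNC5, with all 3 UNC5 libraries between 0.993 and 1.30 CPM.

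asp-17 showed the largest difference among the members. Background work links this intestinal protease to the death of worms rewarmed after cold shock, downstream of the transcription factor ZIP-10. Its level was 11.4, 10.7 and 11.2 CPM in WT, 0.993, 1.30 and 1.01 in the UNC5 libraries and 9.21, 9.38 and 8.90 in those of PATR1. The UNC5 libraries held 39, 53 and 46 counts, and every one lay far below every library of the other groups. The mean in UNC5 was 9.91% of that in WT, a 10.1-fold lower level (log2 fold change -3.33 ± 0.097, SE). Of the 17512 tested genes, 198 had a lower log2 fold change in UNC5. In PATR1 the level was 82.4% of that in WT (-0.28 ± 0.063), with no overlap between the groups. Between the mutant groups asp-17 was 8.31-fold higher in PATR1 (3.05 ± 0.10), and 18 genes had a larger value in that comparison.

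asp-8 was lower in both mutant groups. It stood at 49.3, 50.3 and 51.9 CPM in WT, 16.5, 15.1 and 13.8 in the UNC5 libraries and 11.2, 12.5 and 12.2 in those of PATR1. The 3 genotypes did not overlap. The difference from WT was 3.35-fold in UNC5 (-1.74 ± 0.051) and 4.23-fold in PATR1 (-2.08 ± 0.053), and PATR1 was 1.26-fold below UNC5 (-0.34 ± 0.062).

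asp-13 was low in PATR1. Its level was 88.8, 98.5 and 99.3 CPM in WT, 91.9, 87.6 and 86.9 in the UNC5 libraries and 42.2, 46.8 and 47.5 in those of PATR1. UNC5 and WT overlapped, at a log2 difference of -0.11 ± 0.043. PATR1 lay 2.10-fold below WT (-1.07 ± 0.045) and 1.95-fold below UNC5 (-0.96 ± 0.046), clear of both.

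asp-14 had the highest fold change of the 10 in UNC5. It stood at 137, 143 and 138 CPM in WT, 275, 279 and 282 in the UNC5 libraries and 195, 204 and 207 in those of PATR1. UNC5 was 2.00-fold above WT (1.00 ± 0.031) and lay just under the 2-fold limit, at a log2 value of 0.999. PATR1 lay between, 1.45-fold above WT (0.54 ± 0.032) and below UNC5 (-0.46 ± 0.031). No libraries of different genotypes overlapped.

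asp-3 and asp-4 encode the cathepsin D-like enzymes that act in necrotic neuron death, and they behaved differently here. asp-3 stood at 1167, 1293 and 1220.1 CPM in WT, 1203, 1208 and 1203.5 in the UNC5 libraries and 1124, 1196 and 1184 in those of PATR1. Both mutant groups overlapped WT, at log2 differences of -0.03 ± 0.037 and -0.07 ± 0.037. asp-4 stood at 350.2, 354 and 345 CPM in WT, 268, 275 and 278 in the UNC5 libraries and 461, 487 and 479 in those of PATR1. It was thus lower than WT in every UNC5 library, at 78.3% of the WT level (-0.35 ± 0.032), and higher in every PATR1 library, at 136% (0.44 ± 0.032). PATR1 exceeded UNC5 1.74-fold (0.80 ± 0.032). The per-length ratio of asp-4 to asp-3 was 0.286 ± 0.0135 in WT, 0.227 ± 0.00401 in UNC5 and 0.408 ± 0.00287 in PATR1.

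asp-1, an intestinal protease, stood at 94.9% of the WT mean in UNC5 and 105% in PATR1. Its level was 4481, 4994 and 4869.8 CPM in WT, 4309.6, 4665 and 4636 in the UNC5 libraries and 4959.7, 5017 and 5072 in those of PATR1. Both mutant groups overlapped WT, at log2 differences of -0.08 ± 0.042 in UNC5 and 0.07 ± 0.042 in PATR1. The PATR1 libraries all lay above the UNC5 libraries, by 1.11-fold (0.14 ± 0.042).

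asp-2, asp-5 and asp-6 were higher in UNC5 than in WT. asp-5 differed most of these, with 684, 698 and 687 CPM in WT and 1058, 1095 and 1116 CPM in UNC5 (1.58-fold, 0.66 ± 0.034). In PATR1 it stood between these, at 843, 881 and 875 CPM (1.26-fold above WT, 0.33 ± 0.034). asp-6 stood at 1650.4, 1693 and 1742 CPM in WT, 2196, 2236 and 2230.1 in the UNC5 libraries (1.31-fold, 0.39 ± 0.036) and 1444, 1529 and 1498 in those of PATR1 (87.9% of WT, -0.19 ± 0.036). All UNC5 libraries lay above WT and all PATR1 libraries below it. asp-2 differed from WT by a similar amount in both mutant groups, with 731, 718 and 744 CPM in WT, 883, 896 and 938 in the UNC5 libraries and 882, 929 and 934 in those of PATR1. The difference from WT was 1.24-fold in UNC5 (0.31 ± 0.035) and 1.25-fold in PATR1 (0.32 ± 0.035), and the mutant groups overlapped each other (0.02 ± 0.035).

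**Figure D3:**
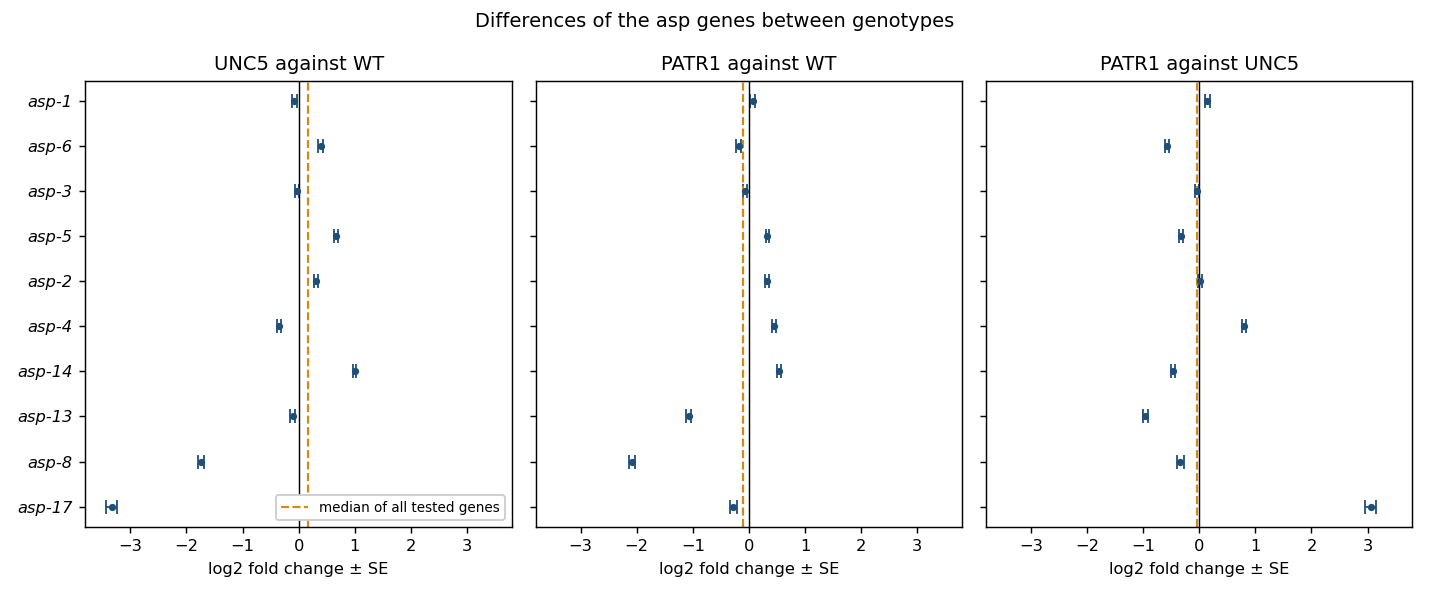
Log2 fold change ± SE of each asp gene in the 3 comparisons, ordered by level in WT, with a dashed line at the median of all tested genes (0.16, -0.11 and -0.04). asp-17 lies at -3.33 in UNC5 against WT and at 3.05 in PATR1 against UNC5, and asp-8 lies at -1.74 and -2.08 against WT.

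Between the mutant groups, asp-1, asp-4 and asp-17 were higher in PATR1 past the adjusted p and asp-5, asp-6, asp-8, asp-13 and asp-14 lower. These are 8 of 10, where 78.7% of all genes passed. asp-17 alone was beyond 2-fold, a limit that 20.9% of all genes passed. The libraries did not overlap for 9 of the 10, nor for 79.5% of all genes. Here too the counts were part of what the genes were chosen on, so nothing is read from these numbers. Pairs of members with the closest patterns over the 9 libraries were asp-1 with asp-3 (root mean square distance 0.0888 on the centred log2 scale) and asp-5 with asp-14 (0.140). asp-1 and asp-3 both differed little from WT, and their small distance goes largely with that.

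The asp genes on chromosome V lie partly in runs, here taken as asp genes with at most 10 kb between neighbours. In the run of 3, asp-12 sits between asp-6 and asp-5, 0.272 kb from the first and 0.328 kb from the second. asp-12, which is not among the 10, was at 8.15 ± 0.188 CPM in WT, 27.9 ± 0.763 in the UNC5 libraries and 27.3 ± 0.909 in those of PATR1. It was thus higher in both mutant groups (1.77 ± 0.051 and 1.74 ± 0.051) by more than either of its neighbours. The per-length ratio of asp-6 to asp-5 was 2.39 ± 0.0666 in WT, 1.98 ± 0.0384 in UNC5 and 1.67 ± 0.0134 in PATR1.

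The run of 4 holds asp-17, asp-16, asp-15 and asp-1 over 15.03 kb, all on the minus strand. Its ends differed widely in level: per exon length asp-1 exceeded asp-17 by 436-fold in WT, 4194-fold in UNC5 and 556-fold in PATR1. asp-16, chosen for mention after its values were seen, had 117, 112 and 121 counts in WT, 9, 13 and 13 in UNC5 and 1, 5 and 8 in PATR1. Its log2 differences from WT were -2.78 ± 0.21 in UNC5 and -4.19 ± 0.25 in PATR1, so in PATR1 asp-16 was low where its neighbour asp-17 was at 82.4% of WT. In the run of 2 with asp-8, asp-7 had 34 to 38 counts per library in WT, 6 or 7 in UNC5 and 4 or 5 in PATR1, and so was lower in the same groups as asp-8. asp-9, on chromosome IV, averaged 0.995 CPM in WT, 0.540 in the UNC5 libraries and 0.153 in those of PATR1. asp-15, asp-18 and asp-19 had too few counts to be tested, at most 5 in a library. These genes were set apart from the 10 with values known, so they carry no test either.

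**Figure D4:**
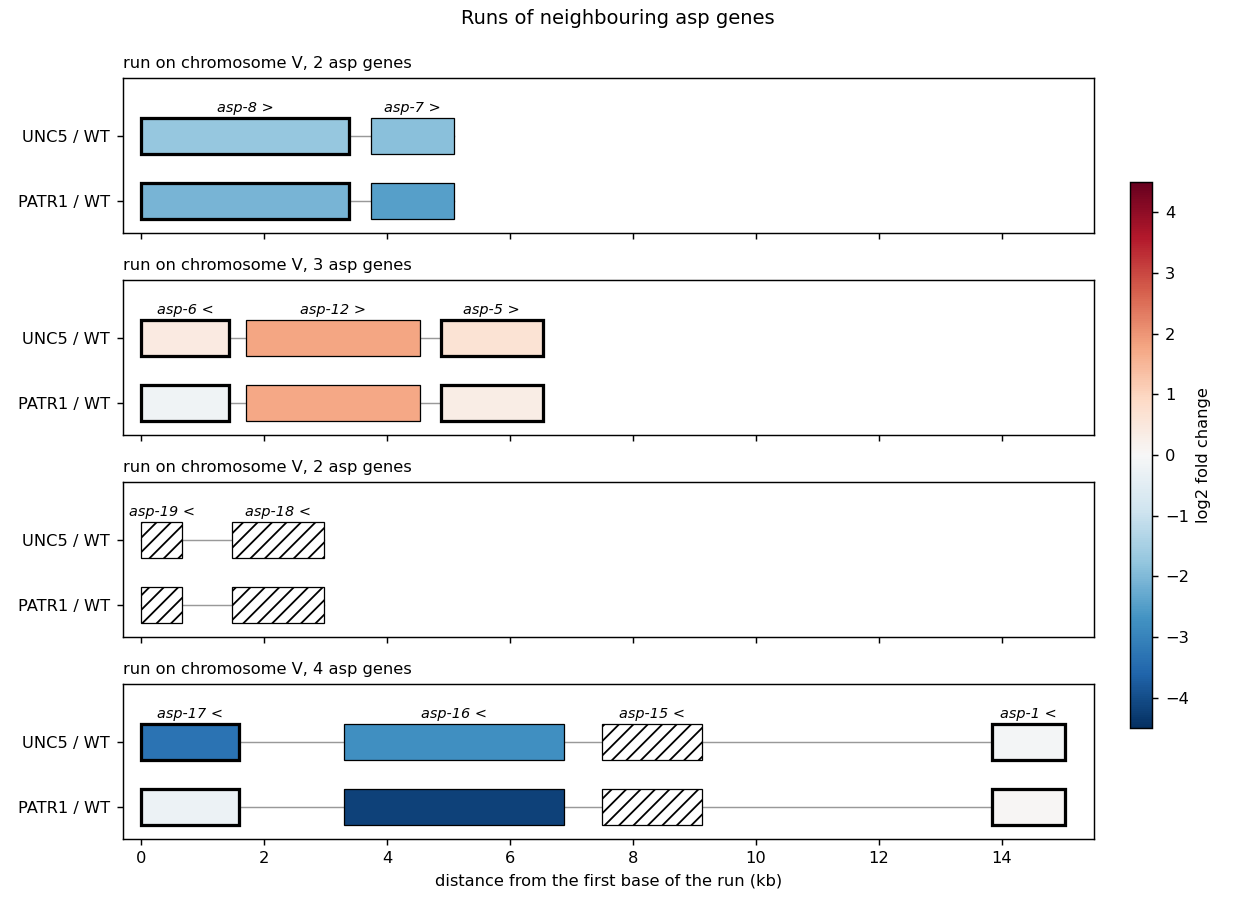
The 4 runs of neighbouring asp genes on chromosome V, drawn to scale in kb from the first base of each run, with > and < for the plus and minus strand. Colour gives the log2 fold change against WT in UNC5 (upper) and PATR1 (lower), thick outlines mark the 10 genes described and hatching marks genes not tested. asp-12 is higher in both (1.77 and 1.74) and asp-16 lower in both (-2.78 and -4.19).

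Genes outside the family with the most similar pattern were sought for the 3 most abundant members, by root mean square distance of centred log2 CPM over the 9 libraries. For asp-1 these were F56F10.1 (0.0318), the endoplasmic reticulum chaperone gene enpl-1 (0.0361) and the purine synthesis gene adsl-1 (0.0367). For asp-6 they were the beta-catenin gene bar-1 (0.0402), the acyl-CoA dehydrogenase gene acdh-9 (0.0409) and T22F7.1 (0.0437). For asp-3 they were the sodium pump gene eat-6 (0.0283), C34F6.7 (0.0286) and C42D8.1 (0.0301). asp-6 stood apart between genotypes, so its likeness rests largely on 3 group means. asp-1 and asp-3 overlapped WT in both mutant groups. Within WT, asp-3 ran from 1167 to 1293 CPM, beside group means of 1227 in WT, 1205 in UNC5 and 1168 in PATR1. For asp-1 and asp-3 a small distance goes largely with little difference between genotypes, in them and in the genes listed beside them.

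Lists of other proteases and of genes of lysosomes, necrosis and gut regulation were counted against all 17512 tested genes. Of all tested genes, 8727 rose and 4728 fell in UNC5 (76.8% in all) and 6780 rose and 7860 fell in PATR1 (83.6%). Where a list's share lies near these, its count says nothing particular to the list. Of 7 aspartic proteases outside the asp family, 5 rose and 1 fell in UNC5, and 6 rose and 1 fell in PATR1. The one that fell was spe-4, a presenilin family gene of sperm, from 28.2 ± 0.274 CPM in WT to 6.64 ± 0.375 CPM in UNC5 (-2.09 ± 0.056, edgeR adjusted p = 1.7e-25) and 14.4 ± 0.613 CPM in PATR1 (-0.97 ± 0.049, adjusted p = 3.1e-18). All 6 sperm markers fell in both groups, and their summed level was 383 to 404 CPM in WT, 78.2 to 83.4 in UNC5 and 275 to 279.7 in PATR1. Their part in the change of spe-4 was not tested. The signal peptide peptidase homolog imp-1 rose from 107 ± 2.31 CPM to 178 ± 2.20 CPM in UNC5 (0.73 ± 0.031, adjusted p = 3.2e-20) and 208 ± 4.13 CPM in PATR1 (0.96 ± 0.031, adjusted p = 2.6e-23). Its relative imp-3 rose in UNC5 (0.56 ± 0.039, adjusted p = 3.0e-14), and the presenilin gene hop-1 rose 2.51-fold in PATR1 (1.33 ± 0.053, adjusted p = 9.0e-20). The list medians were 0.49 in UNC5 and 0.58 in PATR1.

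The V-ATPase is the proton pump that makes lysosomes acid, the condition in which these proteases mature. In UNC5 21 of its 22 subunit genes rose and 1, spe-5, fell, none beyond 2-fold (median 0.31). vha-4 rose 1.44-fold, vha-10 1.40-fold and vha-1 1.40-fold. The number that rose was 13 when no low-count filter was applied. In PATR1 8 rose, 8 fell and 6 did not pass (median 0.03). vha-18 rose 1.78-fold and vha-7 1.63-fold, and vha-12 fell 1.13-fold. With library sizes alone, or with only genes of at least 5 CPM, 2 rose in PATR1.

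Of 30 lysosomal hydrolases and membrane proteins other than cathepsins, 12 rose and 17 fell in UNC5 (median -0.23), and 8 rose and 20 fell in PATR1 (median -0.38). Beyond 2-fold, 2 rose and 8 fell in UNC5, and 1 rose and 8 fell in PATR1. Set apart after their values were seen, the hydrolases and the membrane proteins differed in direction. Of 8 membrane proteins, 7 rose and 1 fell in UNC5, where 4 to 7 rose over the alternative settings, and 6 rose and 2 fell in PATR1. They include cup-5, the mucolipin channel of lysosomes, which rose in both groups (0.47 and 0.81). Of 22 hydrolases, 5 rose and 16 fell in UNC5, and 2 rose and 18 fell in PATR1. The lipase gene lipl-4 rose beyond 2-fold in both groups (1.68 and 1.15), and the glucocerebrosidase homolog gba-2 did so in UNC5 (1.84). The lysosomal lipase gene lipl-5 went from 540.4 ± 22.5 CPM in WT to 159 ± 7.91 CPM in UNC5 (-1.76 ± 0.038, adjusted p = 1.1e-26) and 184 ± 7.17 CPM in PATR1 (-1.55 ± 0.038, adjusted p = 3.1e-25). lipl-1 went from 48.7 ± 1.32 CPM to 13.6 ± 0.301 and 13.5 ± 0.878 CPM (-1.85 ± 0.048 and -1.84 ± 0.048). gba-4, another glucocerebrosidase homolog, fell 3.93-fold in UNC5, and lipl-2 fell 4.62-fold in PATR1.

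The cysteine cathepsins, which share the gut lumen and lysosome with the asp proteases, changed in both directions. Of 11 genes, 5 rose and 6 fell in UNC5. In PATR1 2 rose and 6 fell, or 72.7% of the list beside 83.6% of all genes. The cathepsin B genes cpr-1 and cpr-4 fell 5.66-fold and 4.49-fold in PATR1, to 75.6 ± 3.08 and 156 ± 3.18 CPM. In UNC5 cpr-4 fell 1.56-fold, cpr-5 rose 1.41-fold and cpr-8 1.60-fold. In the necrosis list, which holds calpains, calcium channels and partners of asp-3 and asp-4, 2 of 7 fell in UNC5 and 5 did not pass. Those that fell were the inositol trisphosphate receptor gene itr-1 (-0.26 ± 0.030, adjusted p = 3.0e-09) and the ryanodine receptor gene unc-68 (-0.14 ± 0.034, adjusted p = 0.00039). The number that fell was 5 or 6 under 6 of the alternative settings. In PATR1 5 of 7 fell, among them unc-68 (-0.75 ± 0.035, adjusted p = 4.2e-19) and the calpain gene clp-1 (-0.36 ± 0.031, adjusted p = 1.8e-12), while the calnexin gene cnx-1 rose 1.30-fold.

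Of 12 regulators of gut and lysosome genes, 8 rose and 1, elt-2, fell in UNC5, or 75.0% of the list beside 76.8% of all genes. Under 6 alternative settings 4 or 5 rose. pqm-1, a zinc finger factor, rose 1.82-fold, mxl-3 1.36-fold and isy-1, known as a regulator of zip-10, 1.33-fold. In PATR1 5 rose and 6 fell, with pqm-1 1.49-fold and isy-1 1.45-fold higher and hlh-30, the homolog of the mammalian lysosome regulator TFEB, 1.39-fold lower. zip-10, given for its link to asp-17 and not by the naming rule, stood at 10.8 CPM in WT, 13.8 in the UNC5 libraries and 10.4 in those of PATR1. It rose in UNC5 (0.36 ± 0.058, adjusted p = 1.9e-06), the group in which asp-17 was low, and did not pass in PATR1 (-0.05 ± 0.060, adjusted p = 0.43), where it fell under 2 of 17 alternatives.

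**Figure D5:**
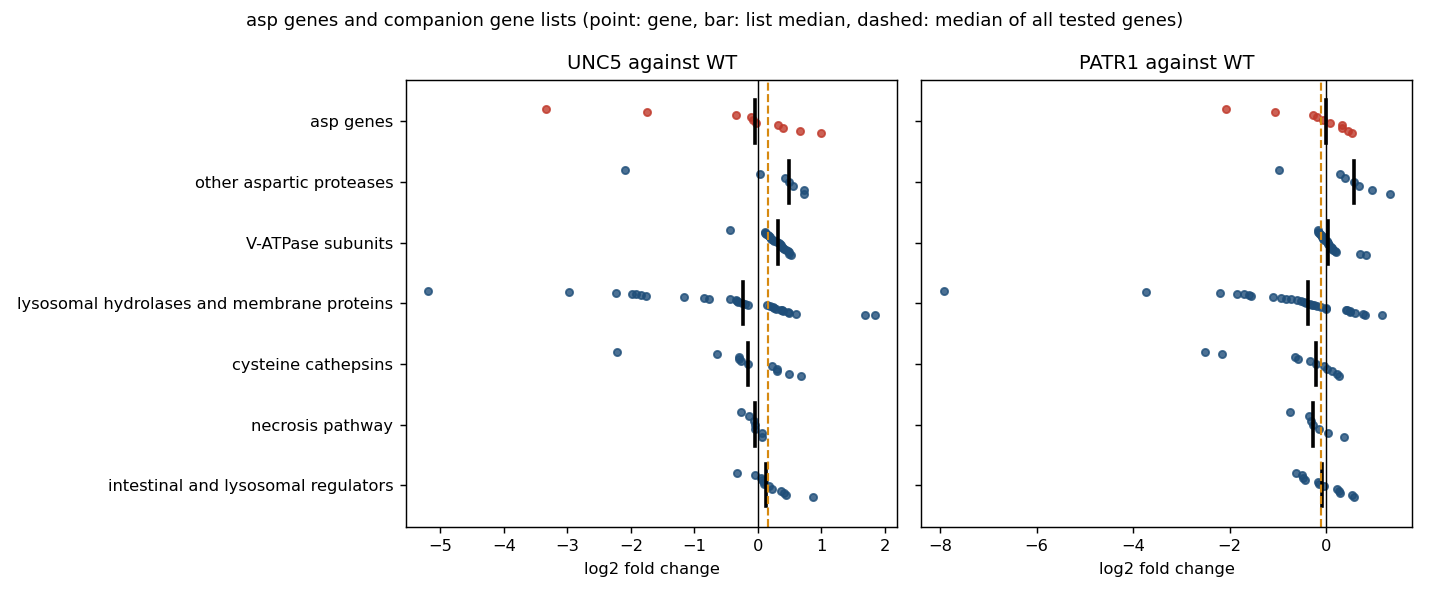
Log2 fold change against WT of the 10 asp genes (red) and of the genes of each companion list (blue) in UNC5 and PATR1. Bars are list medians and dashed lines the median of all tested genes. The asp genes spread from -3.33 to 1.00 in UNC5, and the V-ATPase subunits have medians of 0.31 in UNC5 and 0.03 in PATR1.

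Markers of the intestine, where several asp genes are expressed, were mixed in direction in UNC5 and mostly lower in PATR1. Of 15, 5 rose and 8 fell in UNC5, and 14 fell and 1 did not pass in PATR1. Their summed level was 2942 to 3092 CPM in WT, 2871 to 2965 in UNC5 and 2096 to 2183 in PATR1. No intestine marker was at 0 in any group. pept-1, for a gut peptide transporter, fell 1.81-fold in UNC5 and 2.67-fold in PATR1. pho-1 was among the 5 that rose in UNC5 (0.66), and it fell in PATR1. Of 6 pharynx markers 5 fell in UNC5 (median -0.32), and their summed level was 604 to 631 CPM in WT, 346 to 354 in UNC5 and 264 to 279 in PATR1. All 6 neuron markers rose in UNC5 (0.21), but 1 to 6 did so over the alternative settings. In PATR1 4 of these fell and 1, snb-1, rose (median -0.56). Of 6 epidermis markers, 4 rose and 2 fell in UNC5 (median 0.38), with rol-6 (1.30) and col-19 (-1.43) beyond 2-fold. In PATR1 1 epidermis marker rose and 4 fell (median -0.29). Of 6 germline markers 3 rose and 2 fell in UNC5 (median 0.05). Of 6 body wall muscle markers 4 rose and 1 fell there (median 0.13). In PATR1 all 6 germline markers rose (median 0.62), and all 6 pharynx markers (-1.06) and all 6 body wall muscle markers (-0.39) fell. In PATR1 asp-13 and asp-8 were lower by more than the intestine list's median (-0.49), while asp-1 was at 105% and asp-14 at 145% of WT. The part of tissue content in the asp levels was not tested.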

How the data were processed

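The deposited files hold raw read counts per gene for 9 poly(A) libraries. Per the submitters' processing notes, the authors used FastQC 0.11.9, cutadapt 3.5 and STAR 2.7.11b with WBcel235. The design text names release WS288. Reverse-strand counts were used, as they exceeded opposite-strand counts by 41.9 to 57.1 times. Positions and symbols came from Ensembl 115 (46918 of 46926 identifiers matched).

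filterByExpr of edgeR 4.0.16 left 17512 genes, all 10 asp genes among them. All 9 libraries were fitted together with TMM factors (0.954 to 1.04) in a robust quasi-likelihood model in R 4.3.3, with Benjamini-Hochberg adjustment over all genes. "Rose" and "fell" mean an adjusted p below 0.05, and a gene was called beyond 2-fold in addition. The SE of a log2 fold change is its size over the square root of F. Folds and shares of WT are that fitted log2 value on the linear scale. Where nothing says that replicates were separate cultures, a p-value covers the spread among libraries, possibly a technical one. The common biological coefficient of variation was 3.14%. Squared differences between replicate pairs were 1.58 to 2.58 times those of counting error (median chi-square), so none was counted as a duplicate.

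The asp genes and gene lists were chosen with earlier results of these data known. elt-2, elt-7 and vha-6 stand in more than 1 list. Named list genes are up to 3 per list and comparison with the smallest adjusted p, and list members named as the only ones of their direction. cup-5, lipl-4, gba-2 in UNC5 and zip-10 were named after values were seen. The fit was tested on simulated data. Alternatives were other scaling (relative log expression or library sizes), other filters, DESeq2 1.42.0, unstranded counts, 6 libraries, a replicate block and leaving out each library. Multimapping reads (3.12% to 4.96%) enter no gene count, and their effect on these paralogs was not analysed here. Reads in no feature were 0.582% to 1.32%. No sequences were used.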

Additional observations from a re-analysis of the deposited data

Results flagged for a closer look

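asp-4 was lower than every WT library in all 3 UNC5 libraries and higher in all 3 PATR1 libraries, and the log2 fold changes against WT differ by 0.80 (PATR1 minus UNC5). asp-6 went the opposite way, with a difference of -0.58. These differences were not tested, since the genes were chosen on these counts and both comparisons share the WT libraries.

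Reads on the strand opposite to the asp genes, where a group held at least 10 of them, lay above the highest WT library in every UNC5 library at 8 of the 10 genes and in every PATR1 library at 5. asp-2 and asp-14 overlapped WT in PATR1, as did asp-13 with 7 counts, and asp-8 and asp-17 had at most 4 counts in a group. In UNC5 their mean was 4.98 CPM at asp-1, 1.21 at asp-2, 1.86 at asp-3, 0.511 at asp-4, 1.5 at asp-5, 3.55 at asp-6, 0.276 at asp-13 and 0.608 at asp-14. In PATR1 it was 2.13 CPM at asp-1, 0.445 at asp-3, 0.329 at asp-4, 0.404 at asp-5 and 0.883 at asp-6. In WT the mean was 0.626 CPM at asp-1 and 0.275 at asp-6. At asp-1 they were 0.11% of the reads of both strands in UNC5, 0.0432% in PATR1 and 0.0131% in WT. The share was higher beyond these genes too: over 573 genes with at least 10000 counts in every library its median was 0.0277% to 0.0509% in WT, 0.280% to 0.392% in UNC5 and 0.0825% to 0.118% in PATR1. How many of all genes lay above WT in the same way was not counted. Nothing particular to the asp genes is therefore read from the 8 and the 5. At asp-2 and asp-4 the opposite strand also carries an overlapping gene.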

How the results depend on the processing

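The 30 member log2 fold changes (10 genes in 3 comparisons) gave 510 values under 17 alternatives each. Of these, 418 moved by less than the spread between replicates and 92 by more, and none of those past the adjusted p changed sign. The largest move was 1.12-fold. The sign changed for asp-3 in UNC5 against WT, for asp-1 in PATR1 against WT, and for asp-2 and asp-3 between the mutant groups. asp-14 in UNC5 ran from 0.83 to 1.01 and so stood on both sides of 2-fold. asp-17 ran from -3.50 to -3.27 and asp-8 from -1.91 to -1.68 there. The median of all genes in UNC5 was 0.16, against 0.06 with relative log expression factors and 0.01 in a fit of only the 6 libraries compared, which also changes the filter and the estimate of spread. With library sizes alone the median was -0.23 in PATR1, and 779 genes were called higher and 2350 lower there, against 1054 and 1831.

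With at least 5 CPM in 3 libraries (11491 genes tested), 1615 genes were called in UNC5 (436 higher, 1179 lower, against 1241 and 2404), 1387 in PATR1 (330 higher, 1057 lower) and 1842 between the mutant groups (810 higher, 1032 lower, against 1656 and 2010). Fewer genes were tested there. Leaving out each library gave 3739 to 3811, 2966 to 3082 and 3702 to 3778 calls, against 3645, 2885 and 3666. The number of genes tested differed there too, with 17708 without WT replicate 1, against 17512 in the main fit. Of the 89 list genes, 51 rose and 28 fell in UNC5, with 49 to 52 and 28 when a library was left out.

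The replicate number as a block gave 3646, 2880 and 3664 calls. After each gene's group mean was subtracted from its log2 CPM, correlations between same-numbered libraries were -0.0683 to 0.0931. The best match had the same number in 9 of 18 cases. Between UNC5 and PATR1, same-numbered pairs stood at 0.0931, 0.0449 and 0.0764, and pairs of unlike number at 0.0102 at most. Whether the numbers pair these libraries is thus not settled, and the main fit took no pairing. With 3 libraries a group an exact permutation test cannot pass 0.05. asp-16 and asp-7 rest on few counts.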
